A study of Mus musculus with 6 samples.

Results

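miR-652, miR-151-5p, miR-324-5p and miR-361 (mmu-miR-652, mmu-miR-151-5p, mmu-miR-324-5p and mmu-miR-361 on the array) are 4 of the 611 mouse microRNAs (miRNAs) on an Agilent miRNA array. The RNA came from the embryonic stem (ES) cell line EB3, of 129/Ola background. They were picked by name, as widely expressed miRNAs whose scaled signal had been seen to be higher on the arrays of Activin-treated cells. That contrast therefore chose them, and their differences between the groups are given here as a description, without a test. Both groups carry the same strain, line and cell type labels. The control group (source name EB3_control) holds 3 samples titled without Activin, and the Activin group holds 3 samples titled with it. Activin, a ligand of the TGF-beta family, was given at 10 ng/ml during 3 days as embryoid bodies and for 15 further days on gelatin, up to harvest on day 18. This culture text is the same for all 6 samples, so whether control cells were left undifferentiated or were differentiated without Activin is not given in the sources used here. Whether a group's 3 samples are separate cultures is not stated either, so the spread between them, and any p-value, may reflect technical variation. Each sample was 1 array, all on 1 slide.

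A miRNA is cut from a hairpin and guides silencing complexes to transcripts that pair with its seed, bases 2 to 8 from the 5′ end. In the RefSeq gene table (assembly GRCm38.p6) all 4 hairpins lie within the extent of a protein-coding gene. Mir652 lies in Tmem164 and Mir361 in Chm, both on chromosome X. Mir151 lies in Ptk2, which encodes focal adhesion kinase, on chromosome 15, and Mir324 overlaps Acadvl, a gene of fatty acid oxidation, on chromosome 11. The table gives gene extents and not exons, and the array design names an older build, so no coordinates are given. In other systems miR-324-5p is known as a repressor of the Hedgehog signalling components Smo and Gli1, and miR-151 as a miRNA expressed with its host gene Ptk2. These roles are background and were not measured.

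RefSeq (GRCm38.p6) held mature sequences for 3 of the 4, printed here 5′ to 3′ with the seed in capitals to show that they share no seed. The array names miR-652 and miR-361 without an arm. The arms shown are those that took over these names in later miRBase releases, and the array files hold no probe sequence to check this.
miR-652 (miR-652-3p): aAUGGCGCcacuaggguugug
miR-324-5p: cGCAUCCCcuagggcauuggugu
miR-361 (miR-361-5p): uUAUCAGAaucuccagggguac
No other mature miRNA of the RefSeq table carried any of these 3 seeds. miR-151-5p was not matched. The 4 miRNAs are thus not a seed family, and what the rule joined is their level on these arrays.

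On each array 20 spots measured a miRNA, as 10 spots for each of 2 probes. Intensities of spots without an outlier flag, already background-subtracted by the scanner software, were averaged over spots and then over probes. Before any scaling, miR-652 stood at 26.3, 89.6 and 74.4 intensity units on control 1, 2 and 3, and at 119, 37.9 and 98.5 on activin 1, 2 and 3. miR-151-5p stood at 27.7, 79.2 and 69.2 in control and at 98.7, 37.8 and 96.6 with Activin. miR-324-5p stood at 21.9, 70.3 and 53.7 in control and at 85.1, 29.2 and 76.7 with Activin. For these miRNAs and for miR-361 the order of the arrays was the same, from control 1 over activin 2, control 3, control 2 and activin 3 up to activin 1. The unscaled groups therefore overlapped, since activin 2 lay below control 2 and control 3 in each case. miR-361 stood at 24.4, 68.6 and 59.1 in control and at 81.1, 26.1 and 77.4 with Activin. Control 1 and activin 2 are called dim here by their scaling value. The value used to scale an array, the 75th percentile of 59 probes that were above background everywhere, was 249 and 177 on them, against 427 to 616 on the others. Other measures were low on them too. The geometric mean of the 2 hybridisation spike-ins was 682 and 874 units, against 1440 to 2142 on the others. A labelling spike-in stood at 26.2 and 24.2, against 59.6 to 79.8. Mouse miRNAs detected numbered 80 and 54, against 110 to 119. Control 1 was not dim for every miRNA. The summed unscaled intensity of 13 miRNAs that mark ES cells and epiblast was 3541 to 3979 over the control arrays, control 1 among them. The bearing of this on the 4 miRNAs was not tested.

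**Figure D1:**
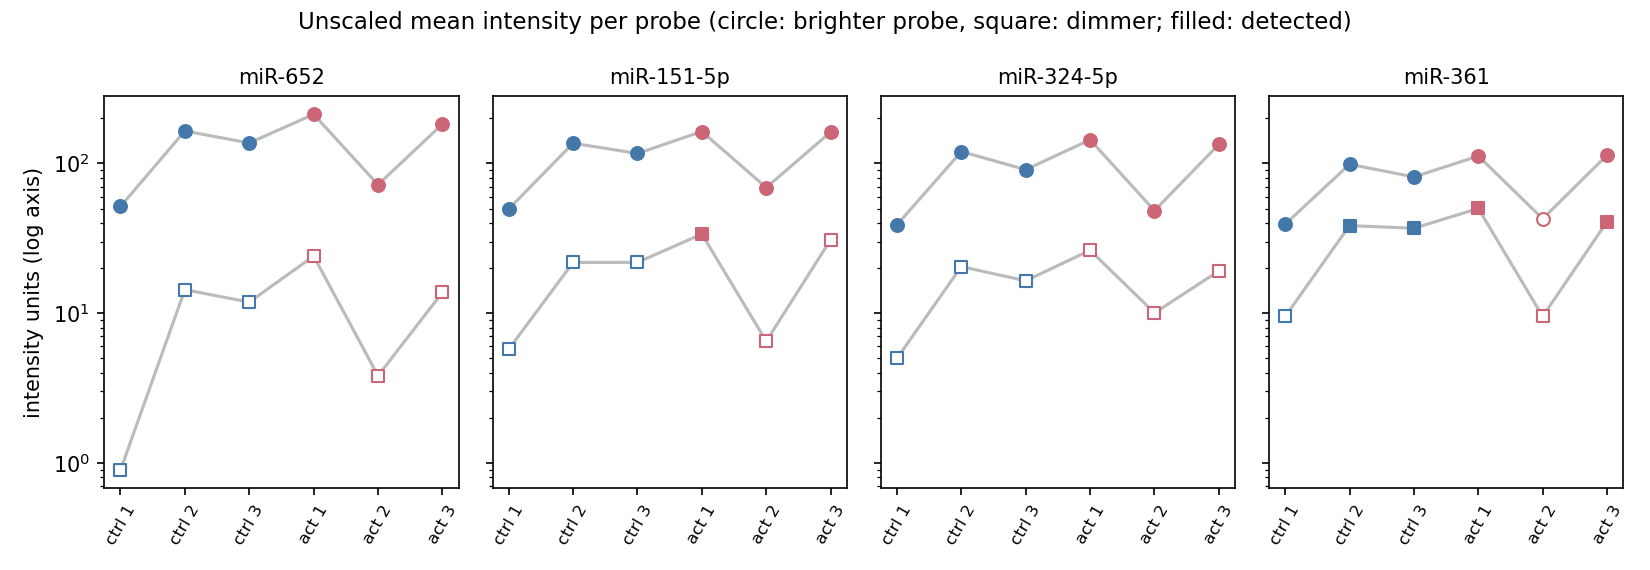
Unscaled mean intensity (log axis, intensity units) of the brighter (circles) and dimmer (squares) probe of each miRNA on the 3 control arrays (blue) and the 3 Activin arrays (red); filled symbols mark a probe detected on that array. Both probes of each miRNA were low on control 1 and activin 2, the 2 dim arrays.

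After division by the array value all 4 miRNAs stood higher on each Activin array than on any control array. For miR-652 the log2 scaled signal was -3.25, -2.78 and -2.52 in control and -2.26, -2.22 and -2.49 with Activin. Its group means were -2.85 ± 0.37 and -2.33 ± 0.14 (SD, n = 3 each), a log2 difference of 0.52 or 1.44-fold. The groups did not overlap, but activin 3 exceeded control 3 by 0.028 only.

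miR-151-5p gave -3.17, -2.96 and -2.62 in control and -2.53, -2.23 and -2.52 with Activin. Its means were -2.92 ± 0.28 and -2.43 ± 0.17 (SD, n = 3 each), a log2 difference of 0.49 or 1.40-fold. Activin 2 was its highest array and activin 1 its lowest Activin array, 0.094 above control 3. This miRNA and miR-324-5p kept the wider gaps between the groups.

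miR-324-5p gave -3.50, -3.13 and -2.99 in control and -2.74, -2.60 and -2.85 with Activin. Its means were -3.21 ± 0.27 and -2.73 ± 0.13 (SD, n = 3 each), a log2 difference of 0.48 or 1.39-fold, with a gap of 0.14 between control 3 and activin 3. That gap was the widest of the 4.

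miR-361 gave -3.35, -3.17 and -2.85 in control and -2.81, -2.76 and -2.84 with Activin. Its means were -3.12 ± 0.25 and -2.81 ± 0.04 (SD, n = 3 each), a log2 difference of 0.32 or 1.25-fold. Its Activin arrays agreed closely, while control 3 lay just 0.012 below activin 3, so this difference was the smallest of the 4 and came from control 1 and control 2. In all 4 miRNAs control 1 was the lowest array and control 3 the highest control array, and the control SD exceeded the Activin SD.

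**Figure D2:**
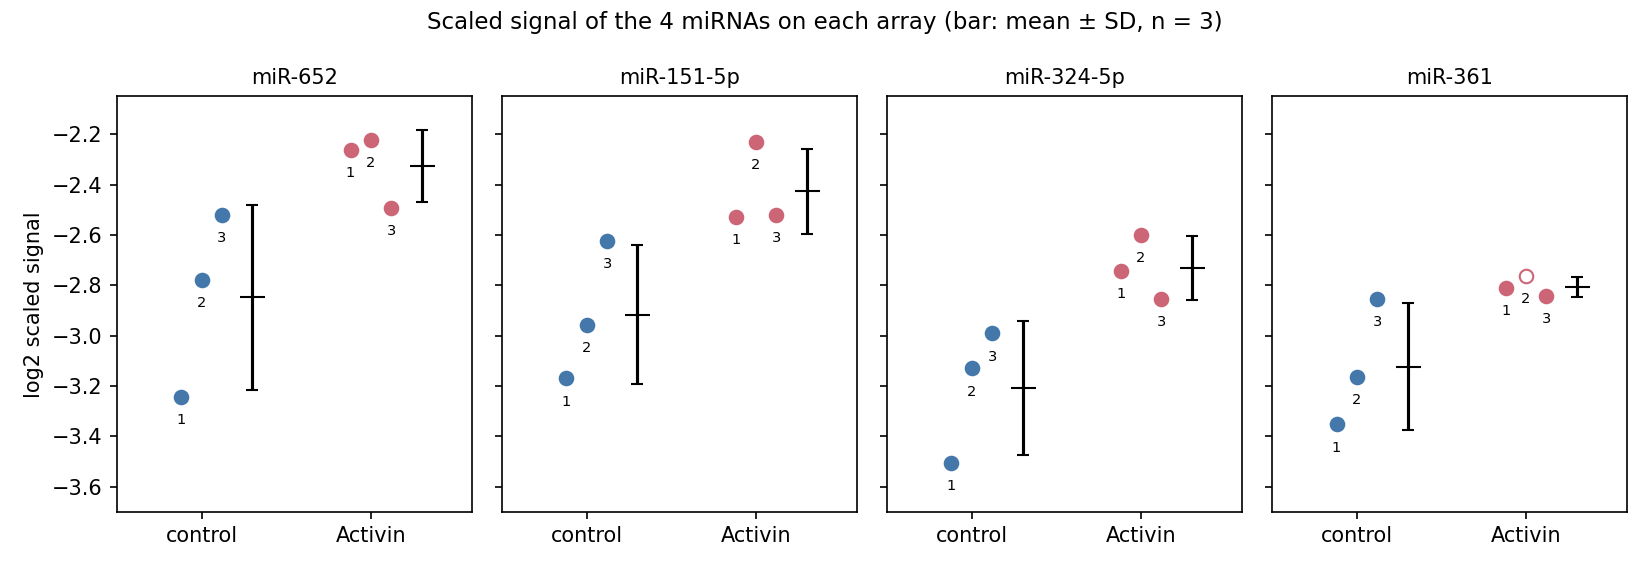
Log2 scaled signal of each miRNA on the 3 control (blue) and 3 Activin (red) arrays, numbered by replicate, with the mean ± SD (n = 3) beside each group; an open symbol marks an array on which the miRNA was not detected. Control 1 is lowest and control 3 lies close below the Activin arrays in every panel.

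The tested set holds 79 mouse miRNAs, each above background on every array of one group or the other. In this set the groups did not overlap in the direction of a higher signal with Activin for 9, or 11.4%, and in the other direction for 5, or 6.33%, and the 4 miRNAs are among these 9 because they were chosen so. A higher mean with Activin was found for 50 of the 79, or 63.3%, and the median log2 difference over all 79 was 0.17. Relative to that median the differences were 0.36 for miR-652, 0.32 for miR-151-5p, 0.31 for miR-324-5p and 0.15 for miR-361. In the order of differences they took ranks 6, 11, 12 and 23. In the limma fit over all 79 miRNAs 1 passed an adjusted p of 0.05 (1.27%). It was miR-302c, an ES cell miRNA named here after its value was seen, with a log2 difference of 1.23 (SE 0.30, limma adjusted p = 0.00597). It was detected on 2 control and 3 Activin arrays, its groups overlapped, and it passed in 3 of 23 alternatives, with limma adjusted p from 0.00202 to 0.998. These counts describe the table from which they were drawn and add no support to the differences.

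**Figure D3:**
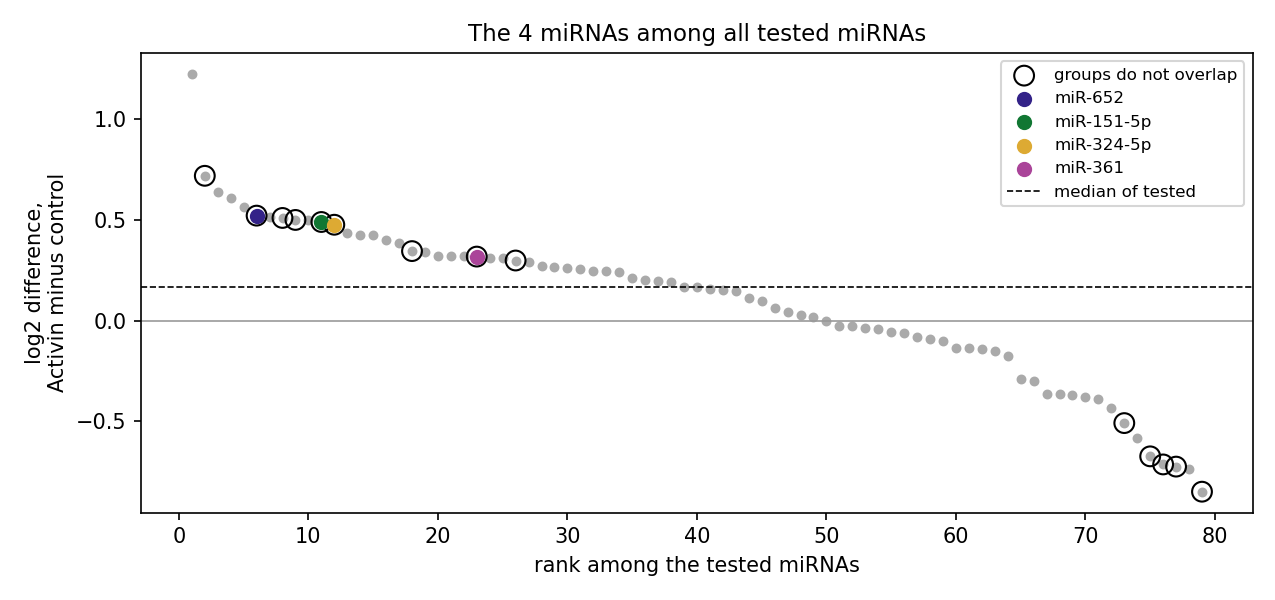
Log2 difference (Activin minus control, main scaling) of the 79 tested miRNAs in order of size, with the 4 miRNAs in colour, a ring where the groups did not overlap and the median of 0.17 as a dashed line. The 4 lie at ranks 6, 11, 12 and 23 among miRNAs of similar difference.

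Detection rested on the brighter of the 2 probes. A spot is well above background by the software's own flag, and a probe was taken as detected where more than 0.5 of its spots without an outlier flag were. The brighter probe had every usable spot above background in 22 of 24 pairs of miRNA and array. The exceptions were both on activin 2, with miR-324-5p at 5 of 8 spots and miR-361 at 2 of 10. miR-361 was thus not detected on activin 2, although its scaled value there was its highest, and the other 3 miRNAs were detected on all 6 arrays. The software's own call per miRNA marked all 4 as detected on all 6.

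The signal of the brighter probes lay near the lower limit on the dim arrays. On control 1 and activin 2 they were 0.936 to 2.04 times the lowest signal of any detected probe on that array, and on the other 4 arrays 2.72 to 6.32 times. The coefficient of variation between replicate spots had a median of 17.1% on these 2 arrays and 7.85% on the others. For all 4 miRNAs these arrays gave the lowest control value and the highest Activin value. No spot of the 4 miRNAs was saturated.

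The dimmer probe was detected on 0 arrays for miR-652 and miR-324-5p, on 1 array for miR-151-5p and on 4 arrays for miR-361. Its intensity was 1.73% to 11.3% of the brighter probe for miR-652 and 22.3% to 45.4% for miR-361. The brighter probe alone gave log2 differences of 0.50 for miR-652, 0.48 for miR-151-5p, 0.45 for miR-324-5p and 0.34 for miR-361, without overlap of the groups, as for 12.7% of all tested miRNAs with this summary. The dimmer probe gave 0.12 for miR-652, with 5 of 6 arrays at the floor of the log2 scale (-4.94), 0.34 for miR-151-5p, 0.37 for miR-324-5p and 0.25 for miR-361, each with overlap. Since the dimmer probe was mostly not above background, and its value for miR-652 rests on the 1 array above the floor, agreement between the probes can be read for miR-361 at most, on the 4 arrays where its dimmer probe was detected.

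The separation of the groups depended on how arrays were scaled. Without scaling, with a 75th percentile taken over every probe, and with the 2 hybridisation spike-ins as the scale, the groups overlapped for all 4. Under each of these 3 scales no tested miRNA stood apart with a higher signal with Activin (0 of 79, 0.0%). In the other direction 1 of 79 did without scaling, 5 with the all-probe percentile and 5 with the spike-ins. Stated per array, miR-652 relative to the spike-ins was -4.70, -4.01 and -4.76 in control and -4.17, -4.53 and -4.03 with Activin on the log2 scale, so control 2 lay above every Activin array. With quantile scaling 3 of the 4 stood apart, against 17.7% of all tested, and miR-361 did not. With the software's own value per miRNA only miR-151-5p of the 4 did, against 6.33% of all tested.

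The sign was steadier than the separation. There were 10 alternatives of scaling and summary other than normexp, a model-based background correction. Over them the log2 difference was 0.24 to 0.52 for miR-652 and 0.21 to 0.49 for miR-151-5p. It was 0.20 to 0.48 for miR-324-5p and 0.041 to 0.34 for miR-361. The alternative with the floor at 2 times its main value left all values of these miRNAs unchanged, so it could not test them. It gave the upper ends for miR-652, miR-151-5p and miR-324-5p, which thus restate the main setting. Among the other alternatives the highest were 0.50, 0.48 and 0.45 in this order, with the brighter probe alone. Spike-in scaling gave the low end for each. The median of all tested miRNAs moved too, from 0.17 to 0.0054 with the 75th percentile of all probes and to -0.11 with spike-ins. Over these alternatives miR-652 stood at 0.20 to 0.39 relative to that median, miR-151-5p at 0.26 to 0.33 and miR-324-5p at 0.23 to 0.31. For miR-361 the range was -0.0013 (quantile scaling) to 0.19. Scales that apply a constant per array, such as spike-ins or no scaling, shift all miRNAs alike and cannot change these values. For miR-652 the value was 0.36 with spike-ins and without scaling, as in the main setting. The ranges thus reflect only quantile scaling and the probe or spot summaries.

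With normexp on the median spot signals all 4 differences were below 0, at -0.21 for miR-652, -0.22 for miR-151-5p, -0.32 for miR-324-5p and -0.34 for miR-361, as was the median of all tested miRNAs (-0.31). This rested on control 3. There 1 spot of a miRNA outside the 4 had a local background of 60324 against a signal of 165, and the fitted background mean was -342 units, against 62.4 to 70.3 on the other arrays. Refitted without the spots whose local background the software had flagged, 4 of them on control 3, the mean there was 61.9. The log2 differences were then 0.27 for miR-652, 0.28 for miR-151-5p, 0.22 for miR-324-5p and 0.17 for miR-361, against a median of 0.13, with overlap of the groups for all 4 (5.06% of all tested did not overlap). On this scale, which keeps an offset of 50 units, activin 2 was the highest array for each.

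**Figure D4:**
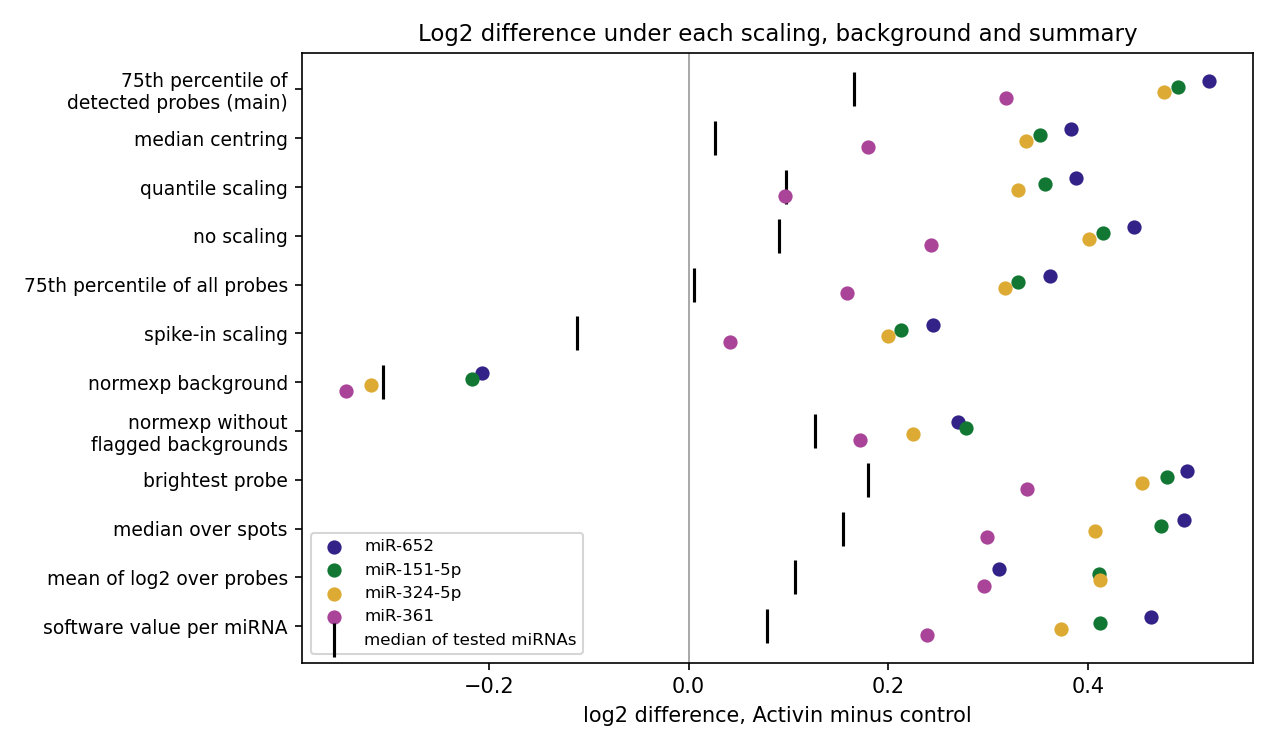
Log2 difference (Activin minus control) of each miRNA, in colour, under the main scaling and each alternative of scaling, background and probe summary, with the median of the 79 tested miRNAs as a black bar. All 4 lie above 0 except under normexp with every spot in its fit, and outside that setting miR-361 lies nearest to the median.

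Single arrays and slide positions changed the size of the differences. Leaving out control 1, a dim array, reduced them to 0.32 for miR-652, 0.36 for miR-151-5p, 0.33 for miR-324-5p and 0.20 for miR-361. The median of the tested miRNAs fell as well, from 0.17 to 0.03. Relative to it the 4 stood at 0.30, 0.34, 0.30 and 0.18, against 0.36, 0.32, 0.31 and 0.15 in the main setting. On the 4 brighter arrays alone the differences were 0.27 for miR-652, 0.27 for miR-151-5p, 0.26 for miR-324-5p and 0.18 for miR-361 (2 arrays against 2). The median of the tested miRNAs there was 0.07. The groups did not overlap for any of the 4, as for 16.5% of the 115 miRNAs tested on these arrays. Control 1 and activin 2 shared slide column 1, where the Activin array exceeded the control array by 1.02 for miR-652, 0.94 for miR-151-5p, 0.90 for miR-324-5p and 0.59 for miR-361, against a median of 0.50 over all tested miRNAs. In column 2, which held control 2 and activin 3, these excesses were 0.29, 0.44, 0.28 and 0.32 in the same order, against a median of 0.03. In both columns the Activin array lay in row 2 and the control array in row 1, so row and group cannot be told apart within a column. Within row 1, where activin 1 lay beside the 3 control arrays, the differences were 0.58, 0.39, 0.47 and 0.31, against a median of 0.19. With slide column as a block they were 0.65, 0.69, 0.59 and 0.46, against a median of 0.24. Control 3 and activin 1 each lay alone in a column, so this fit restates the contrasts of columns 1 and 2 and adds no further arrays.

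The 4 miRNAs varied together from array to array. Pearson's r between pairs of them over the 6 arrays was 0.947 to 0.987, against a median of 0.292 and a 90th percentile of 0.864 over all 3081 pairs of tested miRNAs. Over the 78 pairs that each of the 4 forms, the median was 0.471 to 0.597 and the 90th percentile 0.925 to 0.954, so each also varied closely with miRNAs outside the 4. These r values are descriptions over arrays that share a scaling value and a slide, and the rule had already picked a common direction. The closest pair was miR-652 and miR-324-5p, whose log2 ratio had an SD of 0.082 over the 6 arrays, and the loosest in that measure was miR-652 and miR-361 at 0.16.

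The 3 tested miRNAs most like each of the 4, by Pearson's r of log2 scaled signal over the 6 arrays, were partly the same. For miR-652 they were miR-342-3p (r = 0.994), miR-324-5p (0.987) and miR-21 (0.975). For miR-151-5p they were miR-324-5p (0.968), miR-361 (0.960) and miR-127 (0.947). For miR-324-5p they were miR-652 (0.987), miR-342-3p (0.973) and miR-214 (0.972), and for miR-361 miR-27a (0.993), miR-431 (0.993) and miR-300 (0.982). None of those outside the 4 passed the limma test, where miR-342-3p had a log2 difference of 0.51 (SE 0.30, adjusted p = 0.427), with control 3 at -1.67 above activin 3 at -1.75. miR-431 had 0.72 (SE 0.30, adjusted p = 0.216) without overlap. miR-27a had 0.51 and miR-300 0.44, and only the former separated the groups.

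miR-21 and miR-214, found beside miR-652 and miR-324-5p in this ordering, belong to a list of mesenchymal and smooth muscle miRNAs. Of 7 listed, 5 were detected and tested, miR-143 and miR-145 being detected on 0 arrays. All 5 had a log2 difference above 0 with a median of 0.30, against 50 of all 79 tested (63.3%) with a median of 0.17. Of the 5, miR-22 is also on the list of widely found miRNAs given further below. The summed intensity of the mesenchymal list was 576 to 1850 in control and 629 to 1963 with Activin. The part of such cells in the differences of the 4 miRNAs was not tested. Fewer cells of a type and less RNA per cell cannot be told apart in these samples. Of 13 miRNAs that mark ES cells and epiblast 10 were detected on at least 1 array, with a summed unscaled intensity of 3541 to 3979 in control and 1349 to 3390 with Activin. These markers did not go one way: 5 of the 6 tested, miR-291a-3p, miR-292-3p, miR-293, miR-294 and miR-295, had log2 differences of -0.74 to -0.37 and did not pass the test, and the sixth was miR-302c at 1.23. Of 6 epithelial markers 3 were detected, of 5 neural 2, of 4 muscle 1, of 2 endothelial 1, and of 6 blood and 6 islet, liver and gut markers 0 each.

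Of the other arms of these hairpins 2 were on the array, and neither was detected. miR-324-3p, cut from the same hairpin as miR-324-5p, stood at 1.57 to 8.59 intensity units and was detected on 0 arrays, at 7.34 on control 3 where miR-324-5p stood at 53.7. miR-151-3p lay below 0 after background subtraction on all 6 arrays, from -5.98 to -0.83 units. Different probes bind with different strength, so these levels say nothing about which arm was more abundant. The array named no other arm of miR-652 or miR-361.

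miR-28 and miR-708 are classed with miR-151 in the miR-28 family of hairpins. They are shown because they share a seed with each other and 1 of them was measured above background. The seed of miR-151-5p was not at hand to compare with theirs.
miR-28 (miR-28a-5p): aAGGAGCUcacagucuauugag
miR-708 (miR-708-5p): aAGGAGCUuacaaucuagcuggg
miR-708, miR-708* and miR-28* were detected on 0 arrays. miR-28 was detected on 2 control and 2 Activin arrays, missing on the dim ones, and so was not in the tested set. Its log2 scaled signal was -4.12, -4.03 and -3.39 in control and -3.22, -2.85 and -3.35 with Activin. The means were -3.84 ± 0.40 and -3.14 ± 0.26 (SD, n = 3 each), a log2 difference of 0.70 (exact permutation test, two-sided, p = 0.1, the smallest that 3 against 3 allows). The groups did not overlap by a gap of 0.034, as held for 11 of all 611 mouse miRNAs without a filter (1.8%). In that unfiltered limma fit, in which 435 miRNAs lay at the floor on all arrays, its adjusted p was 0.428. The groups of miR-28 overlapped without scaling, with the all-probe percentile, with the median over spots, with the software's value per miRNA and with either normexp fit, which gave log2 differences of -0.34 with every spot and 0.26 without flagged ones. Over the 6 arrays its r with miR-151-5p was 0.984. The lowest value of miR-28 (control 1) and its highest (activin 2) both came from arrays on which it was not detected. Whether the probes of either miRNA also bind the other was not tested, since the array files hold no probe sequence.

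A list of 20 other miRNAs that are found in most tissues and often serve as references gives the nearest comparison. Signal above background was seen for 15 of them and 8 entered the tested set, of which none passed the limma test. All 8 had a log2 difference above 0, with a median of 0.26 against 0.17 for all tested miRNAs, and 7 lay above the latter. miR-23a had the largest, 0.50 (SE 0.30, limma adjusted p = 0.427) against 0.52 for miR-652, and miR-25 and miR-26a each had 0.31 (adjusted p = 0.619 each). With spike-in scaling 3 of 8 were above 0, while the median of all tested miRNAs fell to -0.11. The 7 of 8 above the median stayed so by construction, since this scale shifts every miRNA on an array alike. Without control 1, a dim array, 4 of 8 were above 0 and 3 of 8 above the median of all tested, and the list's median was -0.0056 against 0.03. The 4 miRNAs chosen here had a median of 0.48 on the main scale, a value that their choice fixed.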

How the data were processed

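Total RNA (100 ng per sample) had been labelled with Cy3, per the labels' protocols. The deposited scanner files hold spot intensities on a linear scale from Agilent's Feature Extraction software (10.7.3.1 per the file headers, 10.1.1 per the submitters' processing notes), background-subtracted and with no scaling between arrays named. The deposited series table held the same linear 1-colour intensities, equal to them at every spot, not centred, with column medians from -0.0489 to 1.84.

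Scaling used the 75th percentile of 59 probes that were above background on every array. Scaled values were floored at 0.0326 and converted to log2. limma 3.58.1 in R 4.3.3 (lmFit, eBayes, two-sided, Benjamini-Hochberg) was fitted over the 79 tested miRNAs. The fit was tested on simulated data. With 194 prior degrees of freedom its SEs reflect a shared spread. Arrays give no counts, and 3 per group limit the precision. The replicate numbers were checked as a pairing. The files hold no mean spot signal, so normexp used the median signal. The 4 miRNAs and the lists were chosen with earlier results of these data known. Besides the 4, the rule for naming takes the detected miRNAs of their hairpins and of the miR-28 family, the 3 of the reference list with the largest difference in size, and the 3 most like each of the 4. Undetected miRNAs of those hairpins, of that family and of the mesenchymal list, and the detected ES cell markers, miR-302c among them, are named outside this rule. So is miR-22.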

Additional observations from a re-analysis of the deposited data

How the results depend on the processing

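Spike-in scaling moved the log2 difference by more than the spread between replicates for miR-151-5p (0.21), miR-324-5p (0.20) and miR-361 (0.041). It moved miR-652 (0.24) by the same amount, which stayed within the larger replicate spread of that miRNA. Quantile scaling moved miR-361 (0.097) by more than its spread. Normexp with every spot turned miR-652 (-0.21), miR-151-5p (-0.22), miR-324-5p (-0.32) and miR-361 (-0.34) below 0, and without flagged backgrounds miR-324-5p stood at 0.22. Relative to the median of tested miRNAs, miR-324-5p (-0.012) and miR-361 (-0.037) turned with normexp and miR-361 (-0.0013) with quantile scaling. Within slide column 1 the values were 1.02, 0.94, 0.90 and 0.59 for miR-652, miR-151-5p, miR-324-5p and miR-361, and without control 1 and activin 2 miR-324-5p stood at 0.26. Leaving out each array in turn gave 0.32 to 0.69 for miR-652, 0.36 to 0.64 for miR-151-5p, 0.33 to 0.59 for miR-324-5p and 0.20 to 0.45 for miR-361. The limma count of 1 call over the table, miR-302c, became 0 under every alternative except the replicate block, slide column as a block and leaving out control 3 (0 to 1 over the left-out arrays), with 0 to 21 at an unadjusted p under 0.05 over all of these. Leaving out both dim arrays, slide row as a block, and normexp without flagged backgrounds were chosen after seeing the data. The replicate numbers did not pair the arrays (r of deviations -0.64, -0.095 and 0.34). With the replicate block the differences were as in the main fit (0.52, 0.49, 0.48 and 0.32) with 1 call. Each number holds 1 array of each group, so this block cannot change the differences. Signal near background limits miR-324-5p and miR-361 on activin 2.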
